A study of Drosophila melanogaster with 75 samples.

Results

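The odorant-binding protein (OBP) genes of *Drosophila melanogaster* were followed in male heads as all genes whose symbol in the array annotation began with Obp. A gene was represented by the probe set, a group of short probes to 1 transcript, that the annotation assigned to that gene alone. Where a gene had several, the probe set with the highest mean signal over all arrays was used. This rule found 47 OBP genes among 11982 genes with a probe set of their own. A further 3 OBP genes had only probe sets shared with another gene. *Obp50b* and *Obp50c* shared a pair of probe sets with mean intensities of 4.42 and 3.96. *Obp57d* shared its probe sets with the cuticle protein gene *Cpr57A*, at 716.0 and 21.7, so its own signal cannot be told apart from that of *Cpr57A*. The rule used names only, so relatives that go by other names, *lush* and *Os-C*, were not chosen by it and are described separately.

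The heads came from isogenized Canton-S males aged 5 days, raised in groups and moved to single vials on the day before the experiment. Control males were mock exposed, without a female. Mated males were frozen 2 hrs after they had copulated with a virgin female, and courted males were exposed to a cauterized virgin female and collected at the same time. There were 5 arrays of control, 5 of courted and 5 of mated male heads, each made from the RNA of a pool of 30 heads. All groups shared the strain, age, sex and housing. The methods describe taking heads off the bodies by vortexing quick-frozen flies. Whether the pools held every antenna and mouthpart was not recorded, and the replicate error is the spread between pools of 1 isogenized strain. In RNA from whole heads, fewer cells of a type and less RNA per cell cannot be told apart.

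OBPs are small proteins that support cells secrete into the fluid bathing the dendrites of smell and taste neurons. They bind odorants, pheromones and tastants in that fluid, outside the neuron, whereas the odorant, ionotropic and gustatory receptors sit in the neuron's membrane. The family is known mostly from the antenna, the third segment of which carries the olfactory hairs, and from the taste hairs of the proboscis and legs. Some members are made elsewhere, in glia, in the fat body or in the male reproductive tract, from which they enter the seminal fluid. During courtship the male smells and tastes the female, and some antennal OBPs take part in sensing the male pheromone cis-vaccenyl acetate.

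Intensities are given as GC-RMA values, a signal on a linear scale corrected for the base composition of the probes, and a gene with a mean above 100 over the 15 arrays was counted as expressed. Between 40.1% and 40.9% of probe sets lay above 100 on each array. The arrays share a normalization, which can itself make these shares alike, so they do not show that the arrays were comparable. Markers fitted the labelled tissue in part: 4 of 4 measured photoreceptor genes and 5 of 5 glial genes were above 100, and 0 of 5 testis genes and 0 of 4 gut genes were. Of 4 measured neuronal genes only *nSyb* and *Rdl*, 2 in all, were above 100, and *elav*, which marks all neurons, was at most 4.10 on the log2 scale. The RNA of chemosensory neurons was nearly out of reach, since 0 of 57 odorant receptors, 0 of 56 gustatory receptors and 2 of 53 ionotropic receptors (*Ir75a* and *Ir76a*) were above 100. Of 12 antennal marker genes, 9 had a mean under 10, among them *Orco*, the coreceptor of the odorant receptors.

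Of the 47 OBP genes, 19 (40.4%) were expressed by this threshold, beside 6404 (53.4%) of all 11982 genes. The expressed genes were *Obp8a*, *Obp18a*, *Obp19b*, *Obp19d*, *Obp28a*, *Obp44a*, *Obp49a*, *Obp56a*, *Obp56d*, *Obp56e*, *Obp56g*, *Obp56h*, *Obp57a*, *Obp57b*, *Obp57c*, *Obp69a*, *Obp83b*, *Obp99b* and *Obp99c*. Mean intensity was above 1000 for 13 of them and between 100 and 1000 for 6. Of the 28 genes that were not expressed, 23 had a mean under 10, 5 had a mean of 10 or more and 22 never reached 10 on any array. The genes just inside the threshold were *Obp83b* at 107.4 and *Obp56a* at 112.2, and those just outside were *Obp83cd* at 86.0, *Obp83ef* at 48.9 and *Obp19c* at 40.1. A signal also depends on the probes, so the levels of different genes were not ranked.

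The count depended on the algorithm and on its threshold. It was 24 with the dChip model of perfect match minus mismatch probes, 23 with MAS5.0, 20 with the GeneSpring version of GC-RMA and 38 with the dChip model of perfect match probes alone, at the study's thresholds of 50 for dChip and 100 otherwise. At a threshold of 100 for dChip as well, chosen after the data were seen, it was 22 for perfect match minus mismatch and 26 for perfect match alone, so much of the rise to 38 went with the lower threshold. The 19 genes passed in each of these data sets at the study's thresholds. *Obp83cd*, whose protein holds a duplicated OBP domain, passed in each of the other data sets too and was listed by GC-RMA between 58.0 and 134.7.

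Genes above and under the threshold were mixed within the gene clusters. Of the 26 members on chromosome arm 2R, 10 were expressed, as were 4 of 6 on the X, 3 of 11 on 3R, 1 of 2 on 2L and 1 of 2 on 3L. Among the 9 genes with 56 in their name 5 were expressed, *Obp56a*, *Obp56d*, *Obp56e*, *Obp56g* and *Obp56h*. *Obp56d* and *Obp56e* were at 19380 and 2334, although *Obp56c* and *Obp56f*, their next neighbours with 0 genes between, had means of 4.51 and 5.77. *Obp57a*, *Obp57b* and *Obp57c*, which lie next to each other, were expressed at 5800, 4108 and 7014, whereas *Obp57e*, a gene of leg taste hairs, had a mean of 6.07. In the row *Obp19a* to *Obp19d* the expressed genes were *Obp19b* and *Obp19d*. *Obp58b*, *Obp58c* and *Obp58d*, another row, had means of 4.35, 4.79 and 4.44.

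Bright members included genes known from taste organs, glia and fat body. *Obp19d*, first found as a pheromone-binding protein relative of antenna and taste hairs, was between 23125 and 28277 on the 15 arrays. *Obp49a*, which acts in taste hairs where bitter compounds suppress the response to sugar, was between 5135 and 8262. It was the only expressed gene of 11 measured Plus-C members, a subfamily with additional conserved cysteines that here includes *Obp46a*, *Obp47b* and *Obp58b*. *Obp44a*, a fatty acid-binding protein of glia, was between 19439 and 25254. *Obp99b*, also called *turn on sex-specificity* and known as a target of the sex-determination hierarchy in the head fat body of males, was between 12410 and 17571. *Obp99c*, a close neighbour of *Obp99b* on 3R, was between 21719 and 30387.

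Fainter members, expressed or not, included genes known from the reproductive tract, the proboscis and the antenna. *Obp8a*, a seminal fluid protein in the reproductive tract, was between 155.3 and 248.9 in the heads. The other 4 members listed here as seminal fluid proteins, *Obp22a*, *Obp51a*, *Obp56f* and *Obp56i*, had means of 4.91, 4.59, 5.77 and 4.56. That list may be incomplete. *Obp56g*, known from the proboscis and also from the ejaculatory bulb, was not in it and had a mean of 7749. Of 9 measured genes of the accessory gland and ejaculatory organs, 1 was above 100 (*EbpIII*) and 8 had a mean under 10. *Obp19b*, needed for the taste of amino acids on the proboscis, was between 186.8 and 404.1. *Obp59a*, known from humidity sensing in the antenna, had a mean of 5.59, and *Obp99a* and *Obp99d* had means of 5.16 and 7.33.

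The largest spread in the family lay in antennal genes and followed 2 control arrays. *Obp83b* encodes OS-E, an abundant protein of the pheromone-sensing hairs of the antenna. Its log2 intensity was 2.40, 10.04, 8.87, 2.40 and 2.36 in control heads 1 to 5. It was 2.39, 2.67, 2.41, 2.40 and 2.40 in courted heads, and 2.40, 4.61, 2.40, 2.40 and 2.39 in mated heads. *Obp83b* was thus high in control 2 and control 3, intermediate in mated 2 and at the low end of the scale elsewhere, so its place among the expressed genes rested on 2 arrays. Without control 2, control 3 and mated 2, an alternative added after the data were seen, 18 members were expressed and *Obp83b* was not among them. The same 2 arrays stood out with dChip perfect match values, at 9.99 and 8.95 against 7.20 in mated 2 and 6.21 to 6.61 on the others. With MAS5.0 they were at 10.3 and 9.21, with mated 2 at 6.40 and the others between 1.68 and 5.42.

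*Obp69a*, an antennal OBP tied to the male pheromone cis-vaccenyl acetate and to social behavior, had the same 2 highest arrays. Its log2 intensity was 7.73, 9.91, 8.97, 6.80 and 7.64 in control heads, 7.60, 7.41, 7.37, 7.10 and 7.70 in courted heads, and 7.48, 8.18, 7.56, 7.03 and 7.77 in mated heads. Mated 2 was the highest mated array, and the other arrays of the 3 groups overlapped. *Obp19a* reached 7.40 in control 2, 5.73 in control 3 and 3.76 in mated 2, with 2.42 to 3.08 on the other arrays. *Obp84a*, an OBP of the coeloconic hairs of the antenna, was at 4.92 in control 2 and 3.66 in control 3, and at 2.30 to 2.34 on the others, mated 2 included. *Obp28a*, also an antennal OBP, behaved differently. It was at 9.01, 9.63, 8.14, 7.49 and 8.78 in control heads, 9.14, 8.46, 7.59, 7.08 and 9.58 in courted heads and 8.22, 8.15, 8.73, 7.82 and 9.07 in mated heads, a wide spread in every group with its highest values in control 2 and courted 5.

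Relatives outside the rule shared the pattern. *Os-C*, an antennal OBP, was at 9.60 in control 2, 8.03 in control 3 and 5.14 in mated 2, and between 2.11 and 2.25 on the other arrays. *lush*, the OBP through which the trichoid hairs respond to cis-vaccenyl acetate, was at 8.61 and 7.95 in control 2 and control 3 and between 6.95 and 7.45 elsewhere. The chemosensory protein *a10* of the antenna was at 9.26 and 7.27, with mated 2 at 3.53 and the other arrays between 2.42 and 2.44. Antennal secreted proteins of several kinds were therefore high on the same arrays.

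Over all 11982 genes, control 2 and control 3 were the 2 highest arrays for 196 (1.64%), and over the OBP genes for 4 of 47 (8.51%), *Obp19a*, *Obp69a*, *Obp83b* and *Obp84a*. These 2 arrays were picked because *Obp83b* and other members were high on them, so the shares describe the pattern and do not test it. A gap of more than 1 on the log2 scale between these arrays and the third highest was found in 6 genes of the 11982, which were *Obp19a*, *Obp83b*, *Obp84a*, *Os-C*, *a10* and *a5*. Of the 12 antennal markers, 2 had control 2 and control 3 as the highest arrays, *lush* and *a10*. The summed intensity of the 12, of which these are part, ran from 219.9 to 1123 in control, 245.5 to 278.0 in courted and 235.4 to 287.4 in mated heads. The receptor genes among them lay near the low end of the scale, so they could not show whether they shared the pattern. *Orco* was at 3.10 in control 2, 2.65 in control 3 and 3.47 in courted 5 on the log2 scale. *Or67d* was at 2.00 and 2.00 and *Or47b* at 2.05 and 2.05 in control 2 and control 3. *Snmp1*, another of the 12, was at 6.29 in control 2 and 5.85 in control 3, with the other arrays from 5.68 to 6.05. The ionotropic receptors *Ir75a* and *Ir76a*, which were above 100, did not have control 2 and control 3 as their 2 highest arrays. *Ir75a* was at 7.11 and 7.05 there and highest in mated 2, at 7.51. *Ir76a* was at 7.47 and 7.38 there and highest in control 5, at 7.54. Among 12 genes of the CheA and CheB families, other secreted chemosensory proteins, 0 were expressed and 2 had control 2 and control 3 as the highest arrays. These were *CheA87a*, at 5.91 and 4.95 with mated 2 at 4.49, and *CheB93b*, at 4.65 and 3.08 with mated 2 at 2.70. *CheB93a* was highest on the same 3 arrays, at 6.32, 3.41 and 4.55. *CheA7a* was at 6.70 in control 2 and 2.51 in control 3 but at 5.27 in courted 2, so only some of these genes followed the same arrays. The number of antennae in a pool was not measured, and its part in these differences was not tested.

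**Figure D1:**
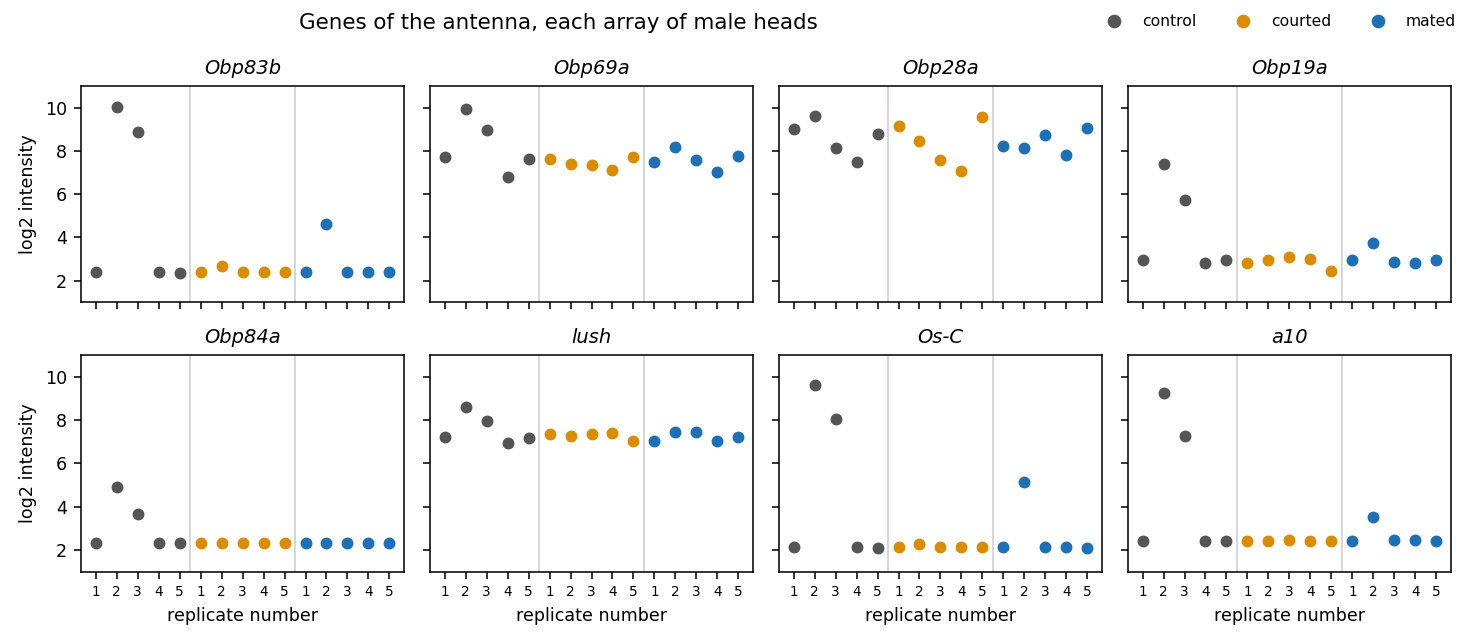
Log2 GC-RMA intensity of 5 antennal OBP genes, of the relatives *lush* and *Os-C* and of the chemosensory protein gene *a10*, for each of the 15 arrays by group and replicate number. Control 2 and control 3 are the 2 highest arrays in each panel except that of *Obp28a*, and mated 2 is the next highest for *Obp83b*, *Obp69a*, *Obp19a*, *lush*, *Os-C* and *a10*.

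Spread between pools differed widely among members. The pooled SD within groups on the log2 scale ran from 0.04 (*Obp57b*) to 2.32 (*Obp83b*) among the 19 expressed members, with a median of 0.19 beside 0.13 over the 7631 probe sets with a mean above 100. It was under 0.2 for 10 members. It was over 0.5 for 3, *Obp83b*, *Obp28a* (0.82) and *Obp69a* (0.76), against 2.48% of all those probe sets. Some arrays were low for many members at once. Mated 1 was the lowest mated array for 12 of the 19 and the highest for 0, whereas 21.2% of all probe sets had their lowest mated value there. Control 4 was the lowest control array for 8 members (23.3% of all probe sets) and courted 4 the lowest courted array for 7 (21.6%).

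The first comparison asked whether OBP genes differed in male heads 2 hrs after mating. By limma, blocked on replicate number and with Benjamini-Hochberg adjustment over 7631 probe sets, 0 of the 19 expressed members were called at an adjusted p under 0.05, where 0% of all probe sets were, and the adjusted p-values of the members ran from 0.522 to 0.988. Before adjustment, 0 members had a p under 0.05, beside 9.53% of all probe sets. The groups overlapped for each of the 19 genes, and 1.43% of all probe sets had groups that did not. Mated heads were higher than control heads in all 5 replicate numbers for 0 members (3.55% of all probe sets) and lower in all 5 for 0 (6.66%). Mated heads were higher by mean in 6 of the 19 genes (42.8% of all probe sets) and the median log2 difference was -0.02 (-0.01 over all probe sets). The data also bounded the differences, since the 95% interval lay within 0.5 of 0 on the log2 scale for 14 members.

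*Obp56a*, a member of the cluster with 56 in its name, was the closest to the threshold of the test. It was at 7.23, 7.22, 7.33, 6.66 and 6.20 in control heads and 6.53, 7.02, 6.38, 6.34 and 6.48 in mated heads, so 4 of the 5 mated arrays lay under their control array and the groups overlapped. The log2 difference was -0.38 ± 0.16 (SE, 5 arrays in each group, adjusted p = 0.522 by limma), and courted heads, at 6.01, 6.82, 7.74, 6.54 and 6.45, spread over both. *Obp83b* and *Obp69a* had mean log2 differences of -2.37 ± 1.08 (adjusted p = 0.526) and -0.60 ± 0.30 (adjusted p = 0.532). Both rested on replicates 2 and 3, without which they were 0.01 and 0.04. *Obp83b* passed the filter only through control 2 and control 3, so its comparison with control heads tests nothing. It stayed in the counts of 19. For the taste and fat body members the differences were small, for example -0.09 ± 0.06 for *Obp99b* and -0.05 ± 0.11 for *Obp49a*, and 15 of the 19 were under 0.2 in size.

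*Obp56h*, whose knockdown is known to shorten the time to mating, was at 11.03, 10.76, 10.78, 10.86 and 11.03 in control heads and 10.22, 10.57, 11.17, 11.13 and 11.26 in mated heads. The mated arrays lay on both sides of the controls, lower in replicates 1 and 2 and higher in the other 3. The log2 difference was -0.02, with a 95% interval of -0.41 to 0.37, which corresponds to a fold change between 0.754 and 1.29. For the glial gene *Obp44a* it was 0.02, with an interval of -0.12 to 0.15.

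**Figure D2:**
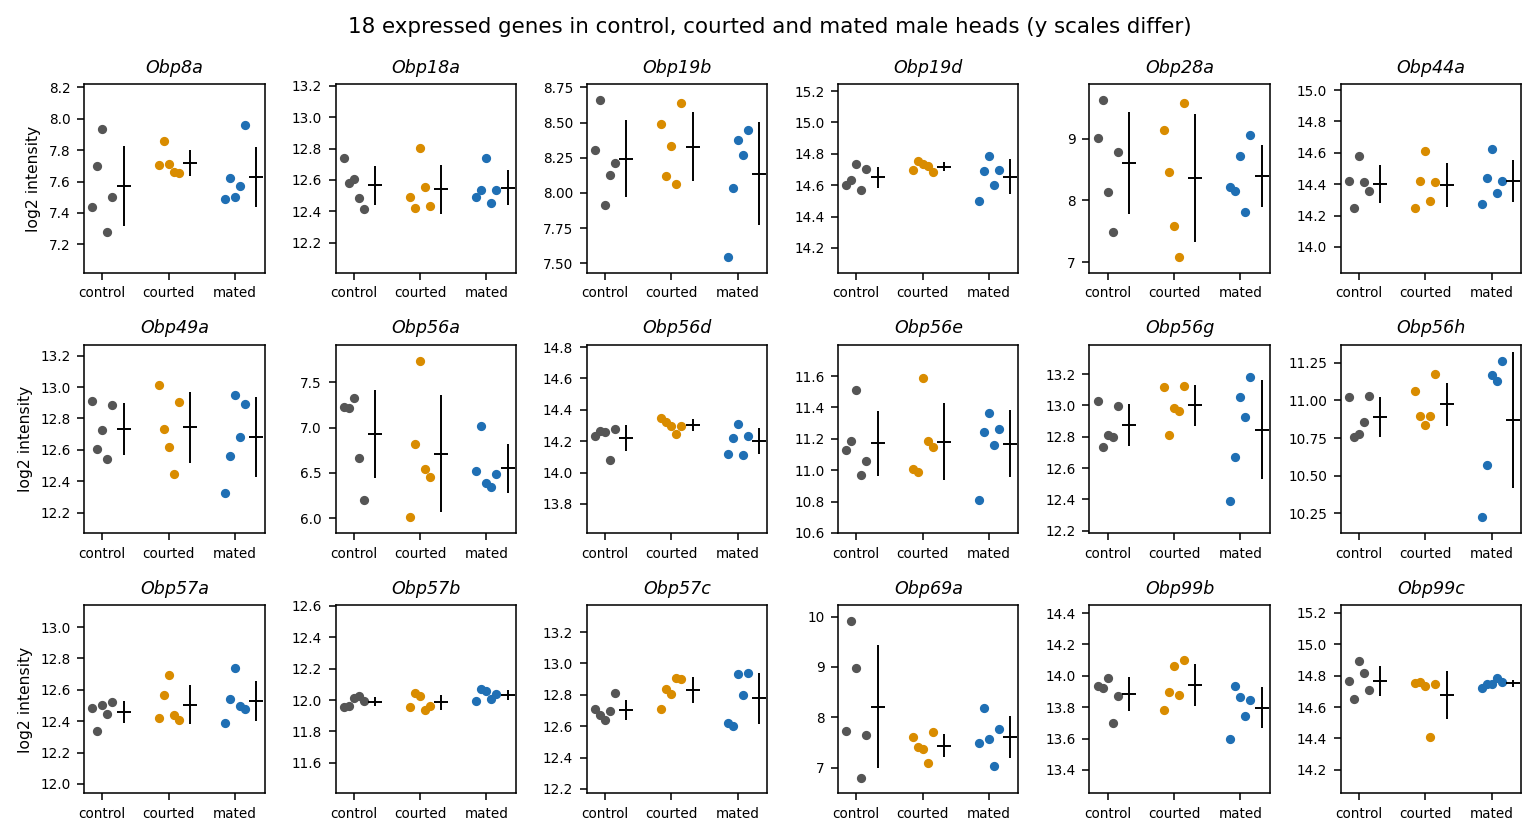
Log2 GC-RMA intensity of 18 expressed OBP genes in control, courted and mated male heads, with 5 arrays in each group. Points are arrays from replicate 1 at the left to 5, the horizontal bar is the group mean and the vertical line 1 SD to each side; *Obp83b* is shown apart among the antennal genes, and the y scales differ. The groups overlap in every panel.

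The second comparison asked whether exposure to a female without copulation was enough for a difference. Of the 19 members, 0 were called between courted and control heads (0% of all probe sets), with adjusted p-values from 0.988 to 0.997. Before adjustment 1 member, *Obp56g*, had a p under 0.05 (3.3% of all probe sets). It is known from the proboscis and from the ejaculatory bulb. It was at 13.03, 12.73, 12.81, 12.80 and 13.00 in control heads and 13.12, 12.81, 12.99, 12.96 and 13.12 in courted heads, higher in courted heads in all 5 numbers with overlapping groups. The log2 difference was 0.12 ± 0.05 (adjusted p = 0.988), a fold change of 1.09 with a 95% interval of 1.01 to 1.18.

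*Obp56d* and *Obp56h*, from the same cluster, were also higher in courted heads in all 5 numbers, which makes 3 of 19 members beside 3.03% of all probe sets. *Obp56g* and *Obp56h* varied together between pools (r of 0.94), so they are not separate observations. With MAS5.0, courted 1 lay under control 1 for *Obp56h* (10.82 against 10.95) and courted 5 under control 5 for *Obp56g* (12.53 against 12.55). With dChip perfect match values, courted 4 lay under control 4 for *Obp56h* (10.48 against 10.52). *Obp56d* was at 14.23, 14.26, 14.26, 14.08 and 14.28 in control heads and 14.35, 14.32, 14.30, 14.24 and 14.30 in courted heads. The log2 differences were 0.08 ± 0.05 for *Obp56d* and 0.09 ± 0.05 for *Obp56h*, both with an adjusted p of 0.988, and that of *Obp56d* changed direction with MAS5.0 values, to -0.04. *Obp57c* had a log2 difference of 0.13 ± 0.05 and *Obp8a* one of 0.15 ± 0.09. *Obp83b*, at -2.76 ± 1.33, and *Obp69a*, at -0.77 ± 0.43, again followed control 2 and control 3. Without replicates 2 and 3 the values were 0.0078 and 0.08. The comparison of *Obp83b* with control heads again tests nothing, since these arrays admitted it. Courted heads were lower in all 5 numbers for 0 members (2.45% of all probe sets). The groups overlapped for all 19 members (0.524% of all probe sets did not overlap), 11 were higher by mean in courted heads (51.4% of all probe sets) and the median log2 difference was 0.01.

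The third comparison set mating against courtship alone. Of the 19 members, 0 were called (0% of all probe sets), with adjusted p-values of 0.983 or more. Before adjustment 1 member, the sex-hierarchy target *Obp99b*, had a p under 0.05 (3.38% of all probe sets). It was at 13.78, 13.89, 14.06, 13.88 and 14.10 in courted heads and 13.60, 13.94, 13.86, 13.75 and 13.85 in mated heads, and control heads lay between 13.70 and 13.99. Mated heads were lower in 4 of the 5 numbers and the groups overlapped. The log2 difference was -0.15 ± 0.06 (adjusted p = 0.983), or a fold change of 0.904 with a 95% interval of 0.822 to 0.994.

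*Obp44a* and *Obp57b* were higher in mated than in courted heads in all 5 numbers (2 of 19 members, 1.74% of all probe sets), and 0 members were lower in all 5 (4.25%). This did not hold with other algorithms. With dChip perfect match values, mated 1 lay under courted 1 for *Obp44a* (13.33 against 13.38) and *Obp57b* (10.97 against 11.02). With MAS5.0, mated 1 lay under courted 1 for *Obp44a* (13.74 against 13.75) and mated 3 under courted 3 for *Obp57b* (11.73 against 11.75). By GC-RMA, *Obp57b*, the steadiest expressed member, was at 11.95, 12.05, 12.03, 11.94 and 11.96 in courted heads and 11.99, 12.07, 12.06, 12.01 and 12.04 in mated heads. The mated arrays were each only slightly higher than their courted array, and the log2 difference was 0.05 ± 0.04. That of *Obp44a* was 0.02 ± 0.04. For *Obp56d*, *Obp56g* and *Obp19b* the log2 differences were -0.10 ± 0.05, -0.15 ± 0.12 and -0.19 ± 0.16. The groups overlapped for all 19 (0.944% of all probe sets did not overlap), and the difference was under 0.2 in size for 18 members. Mated heads were higher by mean in 8 members (39.7% of all probe sets). The median was -0.05, beside -0.02 over all probe sets.

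**Figure D3:**
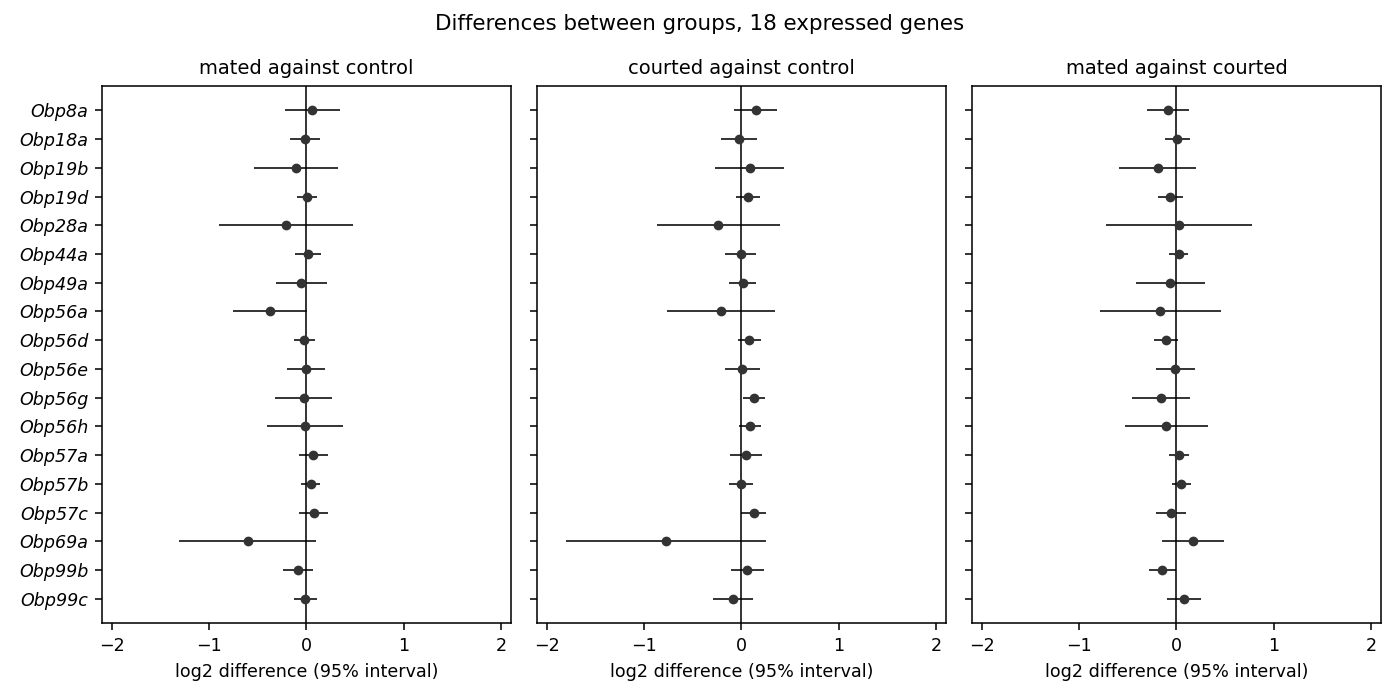
Log2 differences of 18 expressed OBP genes in the 3 comparisons, from limma with the replicate number as a block. Points are differences and lines are 95% intervals; *Obp83b* is left out because its intervals reach beyond the axis. Most points lie within 0.2 of 0, the longest lines are those of *Obp28a*, *Obp56a* and *Obp69a*, and the mated and courted comparisons against control use the same 5 control arrays.

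The related genes of smell and taste gave no call either. Expressed genes numbered 1 among the antennal markers, 2 among the ionotropic receptors and 2 among the chemosensory proteins. Of these, 0 were called in any of the 3 comparisons. As 0% of all 7631 probe sets were called too, the lack of calls was not particular to these genes. The lowest adjusted p among the chemosensory proteins was 0.496, in mated against control heads, and that among the ionotropic receptors 0.528. The mated and courted differences from control share the control arrays, so control 2 and control 3 entered both.

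Some members varied together between pools. Over the 15 arrays, 153 pairs of 18 genes were correlated, without *Obp83b*, whose arrays fell into separate clusters, and 4 pairs passed an adjusted p of 0.05 by permutation for both Pearson's r and Spearman's rho. All 4 were positive, and the median r over all pairs was 0.24. The same count was not made for other probe sets, so it does not set the family apart. The closest pair was *Obp56g* and *Obp56h*, which lie next to each other with 0 genes between. Their r was 0.94 (permutation p = 1e-05, the smallest that 100000 permutations can give, adjusted p = 0.00153), and rho was 0.89 (permutation p = 3e-05, adjusted p = 0.00459). Without mated 1 and mated 2, the arrays farthest from the median of *Obp56g*, r was 0.84, and after the group means were subtracted it was 0.95.

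The other pairs did not lie next to each other. The 2 farthest arrays left out below are those of the first gene named, so arrays far out for the second gene can remain. *Obp44a* and *Obp57a* had an r of 0.82 and a rho of 0.79 (adjusted permutation p = 0.00918 and 0.036), and r was 0.61 without the 2 farthest arrays. *Obp49a* and *Obp56g*, both genes of the proboscis, had an r of 0.80 and a rho of 0.81 (adjusted permutation p = 0.00918 and 0.0275), and r was 0.67 without the 2 farthest arrays. *Obp56h* and *Obp57c* had an r of 0.74 and a rho of 0.80 (adjusted permutation p = 0.0166 and 0.0291), with r at 0.68 without the 2 farthest arrays. Mated 1 was the lowest of the 15 arrays for *Obp49a*, *Obp56g* and *Obp56h*, at 12.33, 12.39 and 10.22. The arrays share 1 normalization, whose part in these correlations was not tested.

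**Figure D4:**
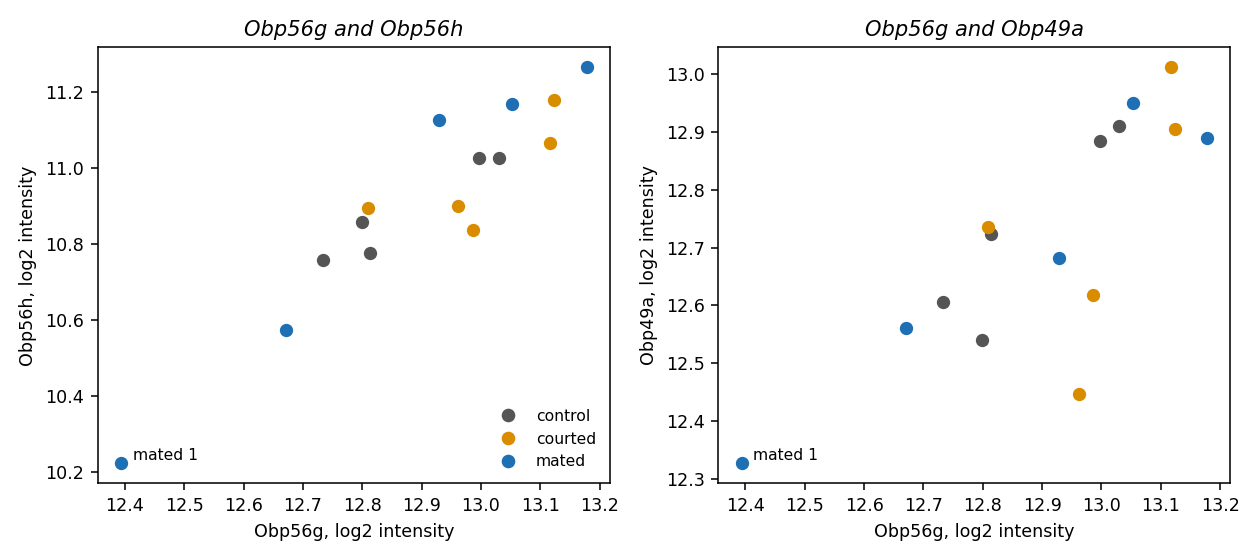
Log2 GC-RMA intensity of *Obp56h* (left) and *Obp49a* (right) against that of *Obp56g*, with a point for each of the 15 arrays coloured by group. Arrays of the 3 groups lie along the same rising line, with mated 1 at the lower end, and r is 0.94 at the left and 0.80 at the right.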

How the data were processed

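The authors deposited probe set intensities that 5 algorithms computed from the same 15 Affymetrix Drosophila 2.0 arrays (dChip PM, dChip PM-MM, MAS5.0 from GCOS 1.2, and GC-RMA from R and from GeneSpring). R GC-RMA intensities, with values under 1 set to 1, were used as log2. The GeneSpring columns, out of step by 1 row after an empty row, were used moved back (r with R GC-RMA 0.0126 before and 0.988 after). Of 18952 probe sets, 183 controls were dropped. Of the 18769 others, the platform annotation gave 13647 a single gene, 402 several and 4720 none. All 47 members matched the RefSeq gene table by symbol, which supplied only chromosome arm and gene order. *Obp83a* and 3 others of its 51 OBP genes had no probe set of their own.

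The members, lists and tests were chosen with earlier results of these data known. The rule allowed naming of every member with a mean above 100 with its values, the members nearest the threshold, and genes of the marker lists. The genes that share the pattern of *Obp83b* and the examples of low level were named after their values were seen. Groups came from the sample labels. Differences were tested with limma 3.58.1 (R 4.3.3; lmFit and eBayes, two-sided) on the 10 arrays of each comparison, over 7631 probe sets with a mean above 100, with Benjamini-Hochberg adjustment. The fit was tested on simulated data. The number of arrays, 5 in each group, limits the precision.

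The replicate number was a block, since the methods pair mated and control males and the labels describe a male of each group collected at once. After subtraction of group means, mated and control arrays of the same number had correlations of 0.331, 0.461, 0.479, 0.431 and 0.0887 across probe sets. For courted and control arrays they were 0.148, -0.257, 0.182, -0.307 and 0.325, and for mated and courted arrays between -0.451 and 0.164, so the courted numbers were not borne out as pairs. Alternatives were the other 4 data sets, a combined data set, other filters and pseudocounts, fits without the block or with all 15 arrays, a robust trended fit, a Cyber-T style paired test and the omission of each replicate.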

Additional observations from a re-analysis of the deposited data

Results flagged for a closer look

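In 7 of the 57 groups of 5 arrays checked (19 expressed members in 3 groups), 1 array lay farther from its group than the 5-array critical value of Dixon's test, 0.71 of the group's range, allows. About 1 group in 20 would be flagged if values were normal and groups independent, but some members varied together. The share over all probe sets was not computed, so the 7 cannot be read as an excess in this family. For *Obp83b*, mated 2 was at 4.61 on the log2 scale with its nearest neighbour at 2.40. Courted 2 was at 2.67 with its nearest at 2.41, both at the low end of the scale. *Obp56a* was at 7.02 in mated 2, with the next mated array at 6.53. *Obp8a* was high in courted 2 (7.86, nearest 7.71) and in mated 5 (7.96, nearest 7.62). *Obp56d* was low in control 4 (14.08, nearest 14.23), and *Obp99c* was low in courted 4 (14.41, nearest 14.73). Control 2 and control 3, which were high together for *Obp83b*, escape this test, since it looks for a single array.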

How the results depend on the processing

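Under 18 alternatives in each comparison, 0 members were called, and few genes of any kind were. At most 37 probe sets (0.485%) passed in mated against control heads, with the Cyber-T style test, 0 in courted against control heads and 4 (0.0524%) in mated against courted heads, with all 15 arrays in the fit. The lowest adjusted p of a member over them was 0.301 in mated against control, 0.845 in courted against control and 0.398 in mated against courted heads, and between 0 and 4 members had an unadjusted p under 0.05. With no replicate block the lowest adjusted p was 0.756, 0.999 and 0.994, and no call of a member changed.

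Without replicates 2 and 3, chosen after the data were seen, *Obp57a*, *Obp69a* and *Obp83b* had log2 differences of -0.030, 0.040 and 0.010 between mated and control heads, *Obp69a* and *Obp83b* of 0.080 and 0.0078 between courted and control heads, and *Obp69a* of -0.040 between mated and courted heads. With MAS5.0, *Obp19d* and *Obp56d* were at -0.0092 and -0.040 in courted against control heads, and *Obp19d* and *Obp83b* at 0.0084 and -0.54 in mated against courted heads. There *Obp83b* was at -0.48 with dChip PM-MM and -0.024 in the combined data set. With 1 replicate left out at a time it ran from -7.12e-05 (without replicate 2) to 0.49, and *Obp99c* from -0.0028 (without replicate 4) to 0.10. The causes were not tested. All of these were reversals of differences that did not pass the test. Of 32 further differences smaller than their SE, 28 changed sign under some alternative.

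The count of expressed members was 38 with dChip PM at its threshold of 50 and 26 at 100, a setting added after the data were seen, and between 17 and 24 under the other alternatives, 18 to 19 of them with 1 replicate left out. The arrays hold 5 pools a group, and GC-RMA compresses signals near background, so differences among members near background could not be measured.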
